A study of Mus musculus with 6 samples.

Results

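Matrix metalloproteinases (MMPs) and the tissue inhibitors of metalloproteinases (TIMPs) were examined in RNA sequencing of bone marrow derived macrophages (BMDMs), which are macrophages grown in culture from marrow precursors. The members are the rows of the deposited table that carry 1 of 10 gene symbols: the 7 proteases Mmp12, Mmp8, Mmp9, Mmp13, Mmp14, Mmp19 and Mmp27, and the 3 inhibitors Timp1, Timp2 and Timp3. All 10 were found among the 13254 listed genes, and all 10 passed the filter on low values, at least 1 CPM in at least 3 libraries. The 3 KO libraries come from mice without the microRNA cluster miR-130b/301b, and the 3 WT libraries from wild-type mice. The labels describe the culture only as standard, name no agent, and give neither strain, sex and age nor how or in which cells the cluster was removed; the name of the cluster comes from the title of the study. Whether the 3 libraries of a group are separate animals is not stated, and errors and p-values thus cover only the spread between these libraries, which may be technical. Values are CPM, a depth-normalised read count, as deposited, and the scaling between libraries is not stated. The members were chosen by symbol with their CPM values in KO and WT in view, so their own differences are described without p-values. Where members are among the genes called over the whole table this is stated, and nothing is read from it.

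MMPs are zinc-dependent endopeptidases that cleave collagens, elastin, gelatins and many non-matrix proteins. They are made as inactive precursors whose propeptide must be removed, and TIMPs bind the active site of the mature enzymes and block it. In macrophages MMP12 is the elastase for which the cells are best known, and MMP9 is a gelatinase also made in quantity by neutrophils and osteoclasts. MicroRNAs act mostly by pairing of their seed, bases 2 to 8, with sites in the 3′ untranslated region (UTR) of a transcript, which lowers its level or translation.

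The sequences below show the deleted seed and the letters around the start of a protease that differed and of one whose groups overlapped. The first pair is the mature miR-130b-3p and the hairpin of Mir301b (RefSeq, GRCm38.p6, chromosome 16, minus strand, chr16:17124071-17124092 and chr16:17124400-17124496). Capitals mark the seed AGUGCAA of miR-130b-3p, which also occurs once in the Mir301b hairpin.
miR-130b-3p: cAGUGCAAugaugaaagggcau
Mir301b hairpin: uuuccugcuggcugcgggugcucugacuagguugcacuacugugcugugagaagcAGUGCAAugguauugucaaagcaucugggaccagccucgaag
The 7 bases that pair with this seed, TTGCACT, were looked for in 1 annotated 3′ UTR per gene, the longest (GENCODE M21). Of the 10 members, 1 held a match, Timp2, with 1 match at base 1855 of its 3′ UTR of 2630 bases. The other 9 held none. Of the 10691 tested genes with an annotated 3′ UTR, 12.0% held a match. A match is a string of letters and not a shown target. The match in Timp2, with the pairing bases in capitals, reads as follows.
Timp2 site: agcattagactTTGCACTtttaaaaaaaaa

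RefSeq promoter windows of 250 bases before to 50 after a gene's start were present for 8 of the 10 members (9 windows, since Mmp12 has 2 starts), and not for Mmp9 and Mmp19. They were searched on both strands for the AP-1 element, which reads TGAGTCA on one strand and thus TGACTCA on the opposite strand, a site of Fos and Jun family factors known from protease promoters, and on the gene's strand for TATAAA. Mmp12, at its second start, and Mmp13 each held both, and the other 7 windows held neither. Of all 32851 windows, 5.20% held the AP-1 element, 8.32% held TATAAA and 0.624% held both. In Mmp12 the AP-1 element began at base -44 and TATAAA at base 5, and in Mmp13 they began at bases -35 and -16, counted from the annotated start. Both windows lie on the plus strand of chromosome 9 (GRCm38.p6, chr9:7347124-7347423 for Mmp12 and chr9:7272264-7272563 for Mmp13), and capitals mark the 2 motifs.
Mmp12: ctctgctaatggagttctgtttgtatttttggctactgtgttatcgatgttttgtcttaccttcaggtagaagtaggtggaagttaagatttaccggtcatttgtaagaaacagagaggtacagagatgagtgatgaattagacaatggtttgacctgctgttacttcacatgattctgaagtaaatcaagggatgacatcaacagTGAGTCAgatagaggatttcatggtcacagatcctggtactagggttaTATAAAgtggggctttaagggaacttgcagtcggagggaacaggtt
Mmp13: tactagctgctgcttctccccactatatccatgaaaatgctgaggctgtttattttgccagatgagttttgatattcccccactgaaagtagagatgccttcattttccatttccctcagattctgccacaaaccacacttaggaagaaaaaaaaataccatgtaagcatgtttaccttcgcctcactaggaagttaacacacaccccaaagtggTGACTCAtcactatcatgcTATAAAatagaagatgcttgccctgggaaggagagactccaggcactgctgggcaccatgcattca

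The columns of the 6 libraries summed to between 989223 and 1018258 CPM, and depth in reads is unknown, so no counting interval is given. All 9 macrophage markers were listed and summed to between 20505 and 21115 CPM in KO and between 18884 and 19464 CPM in WT, so the libraries carried the transcripts their label names. Lyz2 led this sum. The other 8 markers summed to between 8510 and 8869 CPM in KO and between 8354 and 8781 CPM in WT, and these groups overlapped. Across the 11556 tested genes, 147 differed between KO and WT (limma on log2(CPM + 1), Benjamini-Hochberg adjusted p under 0.05), which is 1.27%, with 0.787% lower and 0.485% higher in KO.

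All 10 members had a lower mean and a negative log2 fold change in KO, as 50.1% of the tested genes had a negative log2 fold change. In 7 of the 10, 5 proteases and 2 inhibitors, every KO value lay below every WT value, as it did for 9.10% of the tested genes, while every KO value lay above every WT value for 8.55% of them and for no member. Mmp12, Mmp8 and Timp2 were among the 147 genes called over the whole table. Because this contrast chose the members, nothing is read from these counts. The median log2 fold change was -0.32 over the members, -0.31 over the proteases and -0.34 over the inhibitors, beside 0.00 over all tested genes (-0.000349). In bulk libraries, fewer cells of a type and less RNA per cell cannot be told apart.

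**Figure D1:**
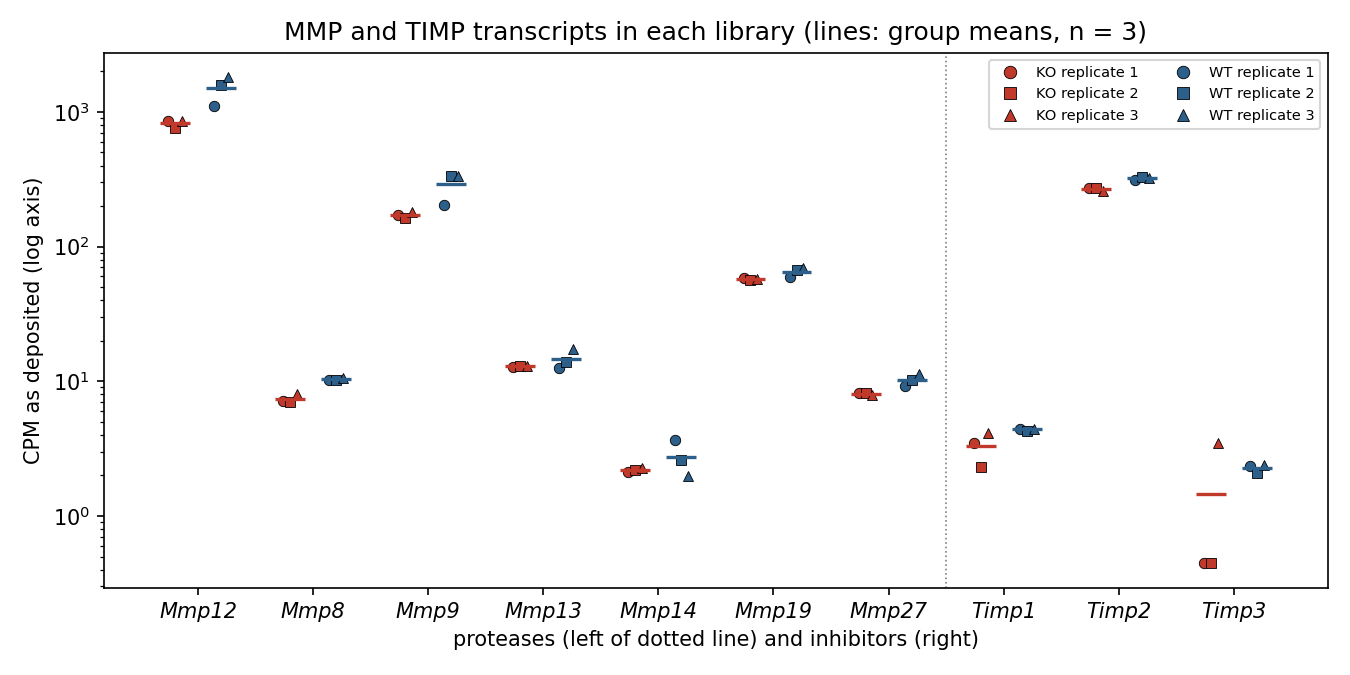
CPM of each member (log axis) in the 3 KO libraries (red, left of each pair) and the 3 WT libraries (blue), with the marker shape giving the replicate and a line the group mean. WT replicate 1 lies below the other WT libraries for Mmp12 and Mmp9, and Timp3 in KO replicate 3 lies apart from the other KO libraries.

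Among the proteases, Mmp12, macrophage elastase, was the most abundant and differed most. It measured 859.6, 765 and 862 CPM in the KO libraries (replicates 1, 2 and 3), against 1097, 1579 and 1807 CPM in the WT libraries. The groups did not overlap, and the WT libraries spread far more widely than the KO libraries. The means were 829 ± 55.7 CPM in KO and 1494 ± 362 CPM in WT (SD, n = 3 each), and the log2 fold change of CPM + 1 was -0.82 (SE 0.155). WT replicate 1 held 64.8% of the mean of the other WT libraries, and without it the log2 fold change was -1.03. With any other library left out, the log2 fold change lay between -0.85 and -0.67.

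Mmp9, gelatinase B, likewise had its lowest WT value in replicate 1. It measured 171, 164 and 180.0 CPM in the KO libraries (replicates 1, 2 and 3), against 204, 334 and 332 CPM in the WT libraries. The groups did not overlap, but WT replicate 1 lay closer to the KO libraries than to the other WT libraries. The means were 172 ± 8.0 CPM in KO and 290 ± 74.5 CPM in WT (SD, n = 3 each), with a log2 fold change of -0.72 (SE 0.166), or -0.95 without WT replicate 1. With any other library left out, it lay between -0.75 and -0.60.

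Mmp8, the collagenase best known from neutrophil granules, was low in both groups and differed with little spread. It measured 7.14, 7.07 and 8.05 CPM in the KO libraries (replicates 1, 2 and 3), against 10.3, 10.2 and 10.5 CPM in the WT libraries. Here WT replicate 1 sat with the other WT libraries, at 99.0% of their mean, and the groups lay well apart. The log2 fold change was -0.43 (SE 0.0745).

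Mmp27, a stromelysin-like protease, measured 8.20, 8.21 and 7.90 CPM in the KO libraries (replicates 1, 2 and 3), against 9.25, 10.3 and 11.4 CPM in the WT libraries (log2 fold change -0.31, SE 0.0842). All KO libraries were lower, and WT replicate 1 was again the lowest WT library. Mmp19, a secreted protease expressed in myeloid cells, ranged from 56.9 to 58.1 CPM in KO and from 59.6 to 69.0 CPM in WT (log2 fold change -0.18, SE 0.0569). Its groups did not overlap, but the KO mean was 96.4% of the value in WT replicate 1.

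For Mmp13 and Mmp14 the groups overlapped. Mmp13, interstitial collagenase of rodents, ranged from 12.7 to 13.1 CPM in KO and from 12.5 to 17.5 CPM in WT (log2 fold change -0.15, SE 0.108). Mmp14, the membrane-anchored protease that activates pro-MMP2, ranged from 2.12 to 2.27 CPM in KO and from 1.99 to 3.69 CPM in WT (log2 fold change -0.21, SE 0.159). Mmp14 was the 1 protease whose highest WT value was in replicate 1, whereas replicate 1 was the lowest WT library for 5 of the 7 proteases. In 6 of the 7 the coefficient of variation was larger in WT than in KO, with Mmp8 the exception.

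**Figure D2:**
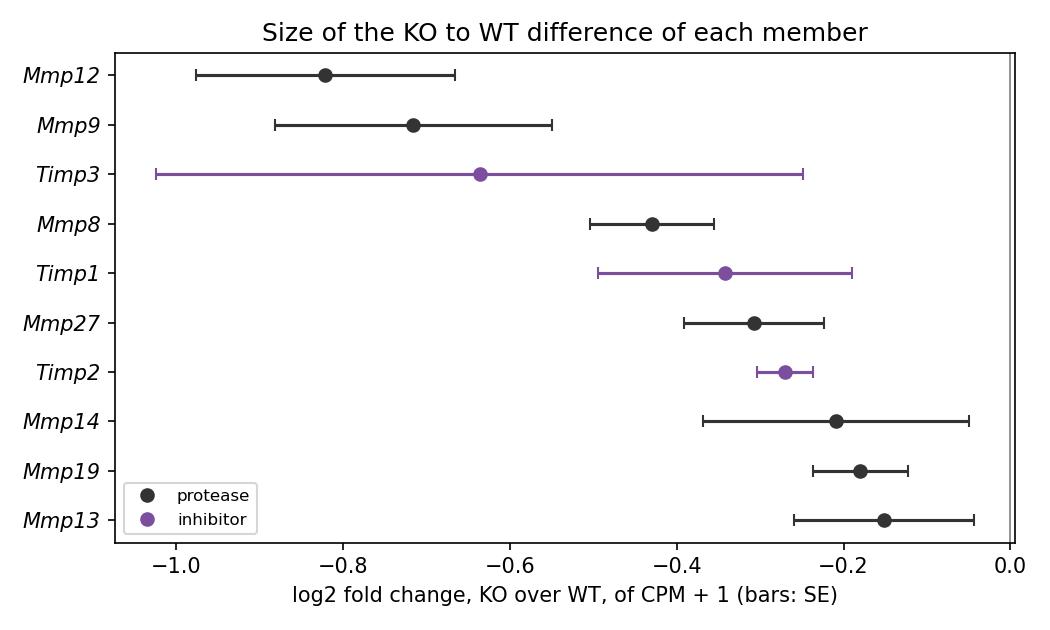
Log2 fold change of CPM + 1, KO over WT, for each protease (black) and inhibitor (purple), ordered from the largest decrease at the top, with bars for the SE. All 10 lie below 0, from -0.82 for Mmp12 to -0.15 for Mmp13, and Timp3 has the widest bar.

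Among the inhibitors, Timp2, which blocks most MMPs and also takes part in pro-MMP2 activation, was by far the most abundant. It measured 271, 271 and 261 CPM in the KO libraries (replicates 1, 2 and 3), against 315, 329 and 325 CPM in the WT libraries. The groups lay apart by several times their own spread, and no library stood out. The means were 267 ± 5.72 CPM in KO and 323 ± 7.19 CPM in WT (SD, n = 3 each), with a log2 fold change of -0.27 (SE 0.0331). Timp2 is also the member with the TTGCACT match printed above, and whether the cluster acts on it was not tested.

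Timp1, a soluble inhibitor induced in inflammation, measured 3.50, 2.32 and 4.14 CPM in the KO libraries (replicates 1, 2 and 3), against 4.44, 4.31 and 4.42 CPM in the WT libraries (log2 fold change -0.34, SE 0.152). The WT libraries were nearly equal and the KO libraries were scattered below them, with replicate 3 almost at the WT level. RefSeq places Timp1 inside the span of the synapsin gene Syn1, which measured 26.5, 24.5 and 24.9 CPM in the KO libraries (replicates 1, 2 and 3), against 29.5, 28.9 and 29.9 CPM in the WT libraries. The strand setting of the counting is not given in the sources used here, so reads of the shared stretch cannot be told apart. The same limit holds for Timp2, Timp3 and Mmp19, which overlap Cep295nl, Syn3 and Tmem198b in that order. Tmem198b was listed, at between 13.5 and 14.6 CPM, and Cep295nl and Syn3 were not.

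Timp3, the inhibitor that stays bound to the matrix, split the KO libraries. It measured 0.446, 0.446 and 3.48 CPM in the KO libraries (replicates 1, 2 and 3), against 2.34, 2.09 and 2.40 CPM in the WT libraries. KO replicates 1 and 2 lay below the WT libraries and KO replicate 3 above all of them, so the groups overlapped. The log2 fold change was -0.64 (SE 0.388) with all libraries and -1.18 without KO replicate 3. It was -0.36 without KO replicate 1 and also without KO replicate 2.

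Markers of other cell types were set beside these values. By limma, adjusted over all genes, 2 of 9 tested stromal, 2 of 8 tested osteoclast and 1 of 12 tested neutrophil markers fell and none rose, beside 0.787% of all tested genes lower and 0.485% higher. All 9 tested stromal markers had a negative log2 fold change, whereas the osteoclast markers were mixed, with 5 negative and 3 positive. Several stromal markers reached the filter on low values only through WT. Among them were Col3a1, Pdgfrb and Postn, with KO means of 0.881, 0.660 and 0.577 CPM. Genes admitted this way lean to a negative sign, so nothing is read from the stromal count. The 12 listed of 15 stromal markers summed to 21.1, 8.78 and 46.4 CPM in KO replicates 1, 2 and 3, against 72.1, 62.9 and 69.6 CPM in WT replicates 1, 2 and 3. KO replicate 3 had the highest stromal sum of the KO libraries and also the highest Timp3 and Timp1, and KO replicate 2 had the lowest stromal sum and the lowest Timp1. The 2 did not go together throughout. In KO replicate 3, Timp3 lay above every WT library but the stromal sum lay below them all. Timp3 was 0.446 CPM in both KO replicate 1 and KO replicate 2, whose stromal sums differed. Col1a1, a defining stromal gene, measured 4.56, 1.38 and 12.3 CPM in the KO libraries (replicates 1, 2 and 3), against 16.7, 14.5 and 16.6 CPM in the WT libraries.

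The 9 listed of 11 osteoclast markers, led by Atp6v0d2, summed to 690.0, 676 and 697 CPM in KO replicates 1, 2 and 3, against 805, 986 and 1017 CPM in WT replicates 1, 2 and 3. Atp6v0d2, a proton pump subunit, carried this gap. The other 8 listed markers summed to 349, 345 and 351 CPM in KO replicates 1, 2 and 3, against 344, 368 and 363 CPM in WT replicates 1, 2 and 3, and these groups overlapped. Tnfrsf11a, the RANK receptor, Nfatc1 and Ocstamp had higher means in KO (171, 67.0 and 5.48 CPM) than in WT (163, 65.6 and 4.78 CPM), without passing the test. Acp5 and Ctsk, defining osteoclast genes, averaged 2.59 ± 0.439 and 7.32 ± 0.762 CPM in KO and 4.68 ± 1.44 and 12.3 ± 1.45 CPM in WT (SD, n = 3 each), and of these Ctsk passed the test (limma adjusted p = 0.0211) and Acp5 did not (0.198). The 16 listed of 17 markers of neutrophils, cells that make Mmp8 and Mmp9, summed to between 252 and 301 CPM in KO and between 273 and 295 CPM in WT, so these groups overlapped. Within that list Mpo, myeloperoxidase, was the 1 gene that fell (limma adjusted p = 0.0219) and ranged from 3.51 to 4.48 CPM in KO and from 6.41 to 7.55 CPM in WT. The 3 listed of 9 mast cell and basophil markers summed to between 1.59 and 1.93 CPM in KO and between 2.42 and 4.11 CPM in WT, and the 4 listed of 5 endothelial markers to between 96.6 and 124 CPM in KO and between 119 and 134 CPM in WT. No listed marker was at 0 in all libraries. The part of these cells in the values of the members was not tested.

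**Figure D3:**
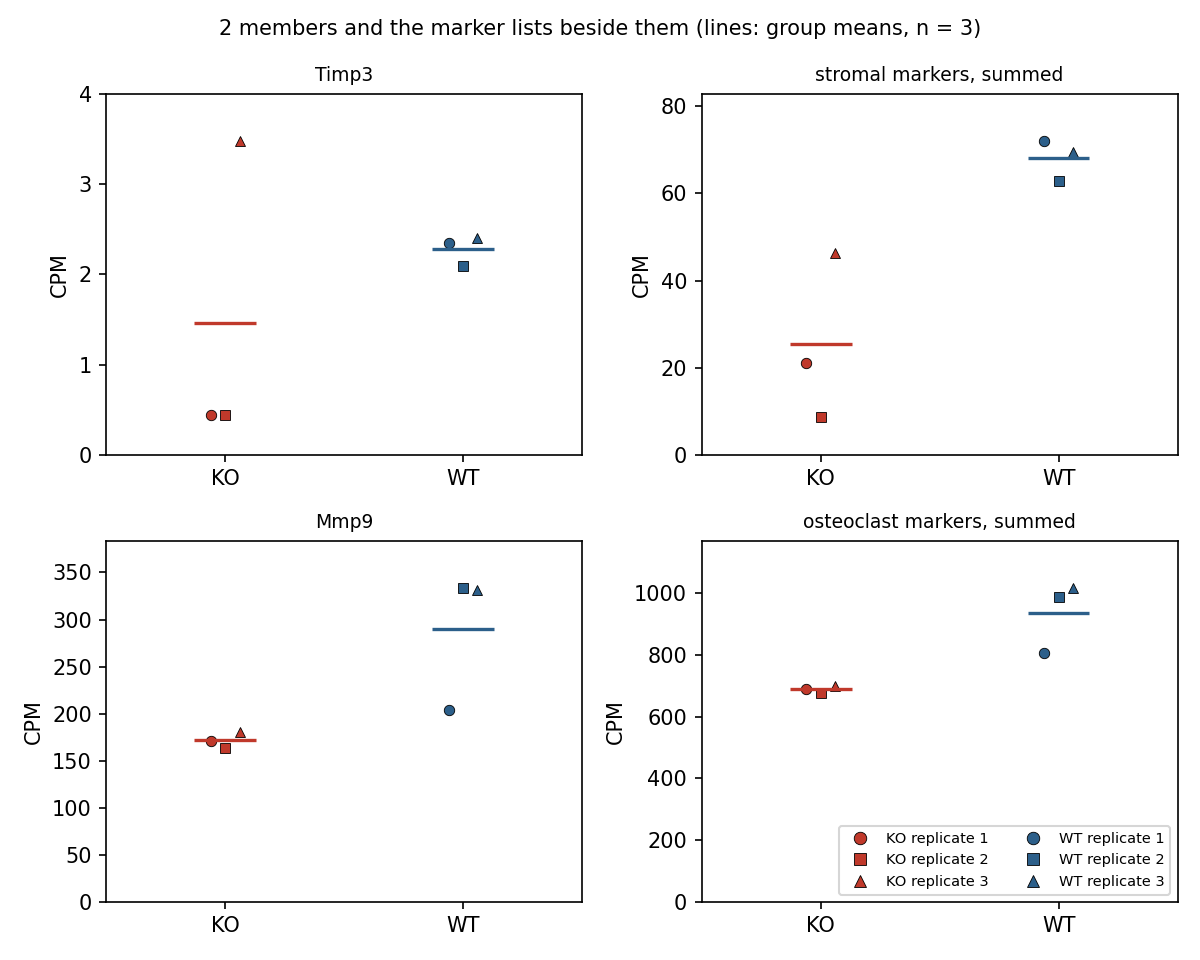
CPM of Timp3 and Mmp9 (left) beside the summed CPM of the stromal and osteoclast marker lists (right) in each KO (red) and WT (blue) library, with lines for group means (n = 3) and axes from 0. KO replicate 3 is the highest KO library for Timp3 and the stromal sum, and WT replicate 1 is the lowest WT library for Mmp9 and the osteoclast sum, which Atp6v0d2 leads.

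Levels of different members were compared per length, as CPM per kb of the longest protein-coding transcript in GENCODE M21. On that scale Mmp12 led at 230 ± 15.4 CPM per kb in KO and 414 ± 100 in WT (SD, n = 3 each), and Timp2 stood at 72.1 ± 1.54 in KO and 87.0 ± 1.94 in WT. Mmp9 followed at 54.1 ± 2.52 CPM per kb in KO and 91.3 ± 23.5 in WT, and Mmp19 at 16.9 ± 0.182 in KO and 19.2 ± 1.49 in WT. In KO, Timp2 lay above Mmp9 in every library. In WT the ranges of Timp2 and Mmp9 overlapped, from 84.8 to 88.6 CPM per kb for Timp2 and from 64.2 to 105 for Mmp9. Mmp13, Mmp27, Mmp8 and Timp1 all averaged between 3.06 and 4.84 CPM per kb in KO and between 4.26 and 5.47 in WT. Mmp14 and Timp3 averaged below 1, at 0.680 and 0.309 CPM per kb in KO and 0.854 and 0.483 in WT.

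Proteases were then set against inhibitors in each library. Summed per length, the 7 proteases were 4.18, 3.87 and 4.30 times the 3 inhibitors in KO replicates 1, 2 and 3, against 4.43, 6.16 and 6.91 times in WT replicates 1, 2 and 3. The groups did not overlap, but WT replicate 1 lay beside the KO libraries. The mean ratio was 4.12 ± 0.219 in KO and 5.83 ± 1.27 in WT (SD, n = 3 each). The protease sum in KO was 58.0% of that in WT, and the inhibitor sum was 82.4%. Mmp12 made up 73.2% ± 0.861 of the protease sum in KO and 76.5% ± 1.21 in WT, and Timp2 made up 94.7% ± 1.78 of the inhibitor sum in KO and 94.1% ± 0.222 in WT. Without Mmp12 the ratio was 1.10 ± 0.0373 in KO and 1.36 ± 0.257 in WT, and the groups overlapped.

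With every gene weighted equally the balance did not differ beyond the spread. The mean log2(CPM + 1) of the proteases minus that of the inhibitors was 1.36, 1.48 and 0.810 in KO replicates 1, 2 and 3, against 1.06, 1.27 and 1.28 in WT replicates 1, 2 and 3. The difference between the group means was 0.01, and KO replicate 3, with its high Timp3, was the lowest of all 6 libraries. Set against Timp2 alone, Mmp12 was the 1 protease whose groups did not overlap, at 1.63 ± 0.117 in KO and 2.18 ± 0.345 in WT on the log2 scale (SD, n = 3 each). Mmp9 minus Timp2 was -0.64 ± 0.0948 in KO and -0.19 ± 0.376 in WT. Mmp8, Mmp13, Mmp14, Mmp19 and Mmp27 differed between KO and WT, relative to Timp2, by between -0.16 and 0.12 on the log2 scale. These are all values of the contrast that chose the members.

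**Figure D4:**
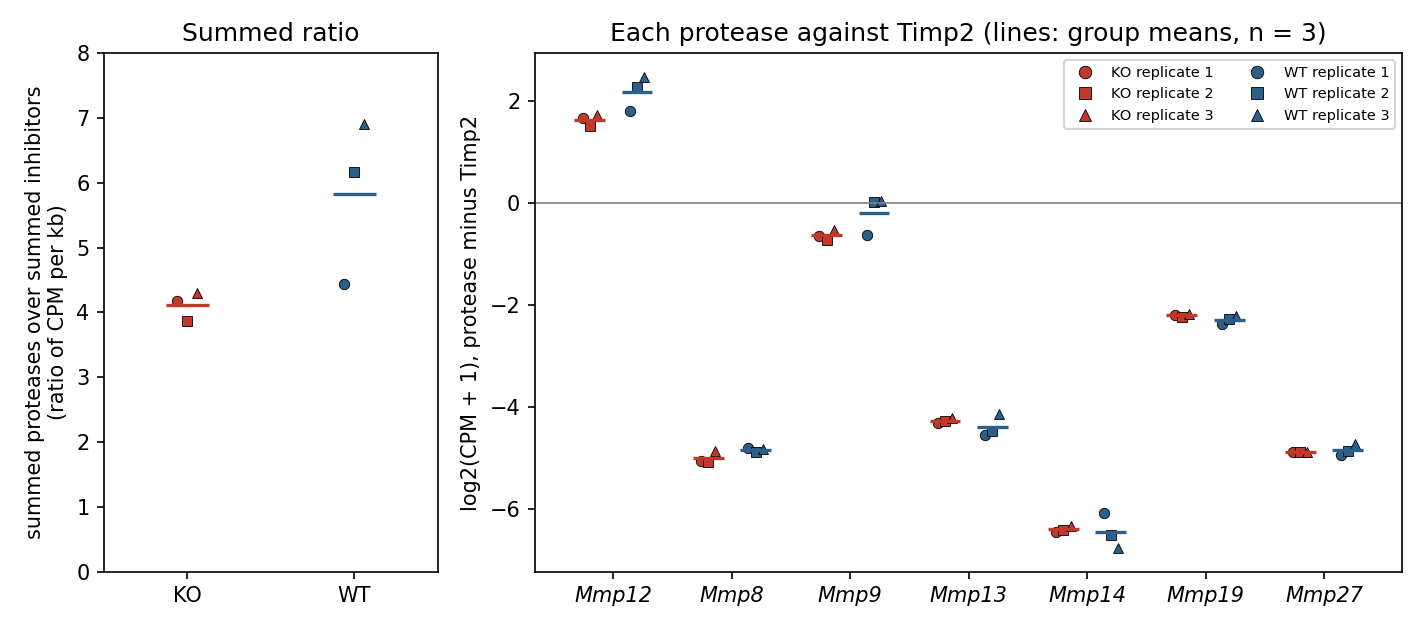
Left, ratio of summed proteases to summed inhibitors in CPM per kb, per library, on an axis from 0. Right, log2(CPM + 1) of each protease minus that of Timp2; KO in red left of WT in blue, lines for group means (n = 3). The KO ratios lie between 3.87 and 4.30 and the WT ratios between 4.43 and 6.91, and Mmp12 is the protease set furthest above Timp2.

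By position, 4 of the 7 proteases lie in 1 run. Mmp13, Mmp12, Mmp8 and Mmp27 are adjacent tested genes on chromosome 9, in the MMP gene cluster (GENCODE M21, GRCm38, a build older than the GRCm39 of the submitters' processing notes), with starts at 7272514, 7344381, 7558456 and 7571396. Mmp9 lies on chromosome 2, Mmp14 on 14, Mmp19 and Timp3 on 10, Timp2 on 11 and Timp1 on X. The 10 nearest tested genes, 5 on each side of the run, held 0 called genes (limma, adjusted over all genes), and 0 had an unadjusted p under 0.05, beside 12.5% of all tested genes. The closest were Dcun1d5 (log2 fold change 0.07, limma adjusted p = 0.606) and Tmem123 (-0.01, limma adjusted p = 0.932). The apoptosis inhibitor genes Birc2 (0.10) and Birc3 (0.08) and the inflammatory caspase genes Casp1 (0.05) and Casp4 (-0.06) lay close to 0 with the 4 remaining neighbours, Msantd4, Dync2h1, Jrkl and Ccdc82, which ranged from -0.08 to 0.03. RefSeq places the lncRNA Gm31751 across Mmp8 and Mmp27, and their reads cannot be told from its reads without strand.

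**Figure D5:**
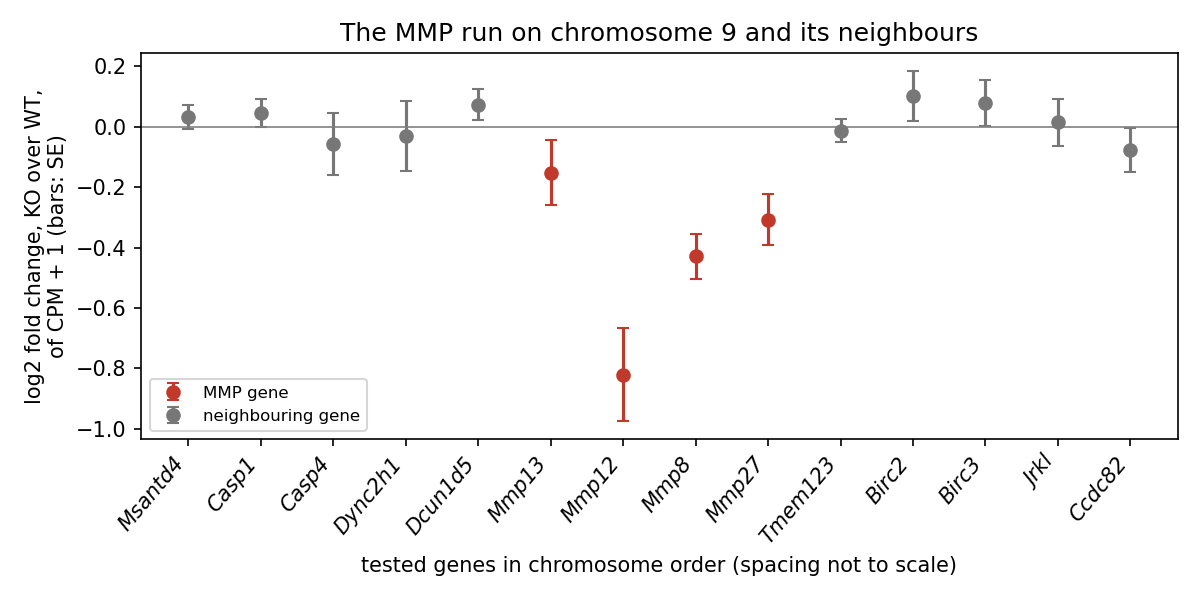
Log2 fold change of CPM + 1, KO over WT (bars: SE), of the 4 MMP genes on chromosome 9 (red) and the 5 nearest tested genes on each side (grey), in gene order with spacing not to scale. The neighbours lie between -0.08 and 0.10, and the MMP genes between -0.82 and -0.15.

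Few other members of the families were listed. Of 17 further MMP and TIMP genes, 2 were listed and neither passed the filter. Mmp2, gelatinase A and a common product of stromal cells, was listed at 0.289, 0.139 and 0.594 CPM in KO replicates 1, 2 and 3, against 0.733, 0.607 and 1.19 CPM in WT replicates 1, 2 and 3. Its groups lay close to each other without overlap. Mmp28 ranged from 0.563 to 0.950 CPM in KO and from 0.519 to 1.11 CPM in WT. The other 15 were not listed, so their levels are unknown, and they are not analysed here.

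Genes that act around the MMPs were counted from lists by role. Among activators and the plasminogen system, which removes propeptides, 0 of 10 tested genes passed the test (limma, adjusted over all genes), with a median log2 fold change of -0.11, and 5 were lower at an unadjusted p under 0.05, beside 7.30% of all tested genes. Its 2 most abundant members were Plau, urokinase (2170 ± 30.4 CPM in KO and 2207 ± 370.5 CPM in WT, limma adjusted p = 0.980), and Anxa2, a plasminogen-binding annexin (889 ± 59.5 CPM in KO and 1003 ± 94.4 CPM in WT, limma adjusted p = 0.387). Plau was also lowest in replicate 1 among the WT libraries, at 1789 CPM.

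Among other inhibitors and regulators, 1 of 12 tested genes fell and 11 did not pass the test, with a median log2 fold change of -0.14. At an unadjusted p under 0.05, 5 were lower and 1 was higher, beside 7.30% and 5.24% of all tested genes. Thrombospondin 1, Thbs1, which binds MMPs and mediates their uptake, fell to 648 ± 35.1 CPM in KO, against 795 ± 33.0 CPM in WT (SD, n = 3 each; log2 fold change -0.29, SE 0.0480, limma adjusted p = 0.0266). Lrp1, the endocytic receptor that clears MMPs and TIMPs, averaged 1503 ± 157 CPM in KO and 1689 ± 35.5 CPM in WT (limma adjusted p = 0.330). Cystatin C, Cst3, an inhibitor of cysteine proteases, averaged 809 ± 26.8 CPM in KO and 754 ± 12.4 CPM in WT (limma adjusted p = 0.283). Thbs1 was no longer called without KO replicate 1 (limma adjusted p = 0.0879), without WT replicate 2 (0.10) or without WT replicate 3 (0.0791), with the replicate block (0.0575), with no trend (0.126) or after quantile normalization (0.0517).

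Of the related ADAM and ADAMTS proteases, 0 of 10 tested genes passed the test (limma), with a median log2 fold change of 0.02, and 1 was lower and 3 were higher at an unadjusted p under 0.05, beside 7.30% and 5.24% of all tested genes. The sheddases Adam8 (1501 ± 18.7 CPM in KO and 1565 ± 66.8 CPM in WT, limma adjusted p = 0.576) and Adam17 (351 ± 4.17 CPM in KO and 339 ± 10.7 CPM in WT, limma adjusted p = 0.584) were the most abundant.

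Of the matrix substrates, 1 of 16 tested genes fell and 15 did not pass the test, though 13 were lower at an unadjusted p under 0.05, beside 7.30% of all tested genes, and the median log2 fold change was -0.90. These counts include genes such as Col3a1 that reached the filter on low values only through WT, which favours a lower KO. With a filter of a mean of at least 5 CPM, 7 were tested and 0 fell, beside 1.31% of all genes called. Col3a1, the type III collagen chain, fell to 0.881 ± 0.580 CPM in KO, against 6.09 ± 2.24 CPM in WT (SD, n = 3 each; log2 fold change -1.92, SE 0.264, limma adjusted p = 0.0133). It was no longer called without KO replicate 1 (limma adjusted p = 0.0716), without WT replicate 2 (0.0549) or with no trend (0.0596). Without KO replicate 3, 5 of the 16 fell, Col1a1, Col1a2, Col3a1, Hspg2 and Sparc, beside 1.02% of all genes called. With any other library left out, between 0 and 2 fell. None fell without KO replicate 1 or without WT replicate 2, beside 0.545% and 0.502% of all genes called. Most of these genes are products of stromal cells, whose marker sums are given above, and several are themselves on that marker list. The most abundant substrate, Spp1, osteopontin, averaged 6913 ± 1073 CPM in KO and 7750.5 ± 629 CPM in WT (limma adjusted p = 0.542), and the laminin chain gene Lamc1 averaged 78.0 ± 2.52 CPM in KO and 86.2 ± 5.40 CPM in WT (limma adjusted p = 0.307).

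Of 11 AP-1 and related factors, 2 fell and 9 did not pass the test, beside 0.787% of all tested genes lower. At an unadjusted p under 0.05, 3 were lower and 2 were higher, beside 7.30% and 5.24% of all tested genes. Jun, a subunit that binds the element printed for Mmp12 and Mmp13, fell to 104 ± 0.356 CPM in KO, against 130.4 ± 1.05 CPM in WT (SD, n = 3 each; log2 fold change -0.33, SE 0.0311, limma adjusted p = 0.00136). Its reads cannot be told from those of the antisense gene Junos without strand. Maf (659 ± 22.7 CPM in KO and 592 ± 31.8 CPM in WT, limma adjusted p = 0.208) and Atf3 (342 ± 6.94 CPM in KO and 372 ± 22.9 CPM in WT, limma adjusted p = 0.326) were the most abundant of the list.

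Among all other tested genes, the profile of Mmp12 over the 6 libraries was most like those of Atp6v0d2, Itgax and Pdpn. The measure was the root mean square difference of log2(CPM + 1) values centred on each gene's mean, at 0.0819, 0.0929 and 0.10 for these genes, where the profile of Mmp12 itself departed from its mean by 0.467. Itgax measured 141, 139 and 158 CPM in the KO libraries (replicates 1, 2 and 3), against 173, 262 and 282 CPM in the WT libraries. Pdpn is also on the stromal marker list, and Atp6v0d2 on the osteoclast list. Replicate 1 was the lowest WT library for these 3 genes, which follows from picking them for likeness to Mmp12. For Timp1 the most alike were Cavin1, Cyb5rl and Rasgrp2, at 0.0593, 0.0640 and 0.0730, where Timp1 departed from its own mean by 0.253. Cavin1 measured 4.16, 3.05 and 4.61 CPM in the KO libraries (replicates 1, 2 and 3), against 5.46, 4.79 and 5.24 CPM in the WT libraries.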

How the data were processed

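The authors deposited 1 table of CPM values per gene for 6 libraries, per the file headers. GRCm39 is the build, per the submitters' processing notes; aligner, counter, strand setting and scaling: not given in the sources used here, nor is the read depth. The column sums differ, so they were not set to 1 fixed total. Groups follow the genotype in the sample titles. A single unlabelled value beside 1 gene was not used, and 0 other sample columns were left out.

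The 11556 of 13254 genes that reached 1 CPM in 3 or more libraries were transformed to log2(CPM + 1), which understates the change of low genes, and KO was compared with WT by limma 3.58.1 in R 4.3.3 with a mean-variance trend, two-sided, Benjamini-Hochberg adjusted across those genes, at a 0.05 threshold. The fit was tested on simulated data. With 3 libraries against 3, an exact permutation test cannot go below p = 0.1, so none was run. Members and lists were chosen with earlier results of these data known. The text names all members, and of each other list the called genes (up to 4) and the 2 most abundant, the 10 neighbours on chromosome 9 and the 3 genes most like Mmp12 and Timp1. Genes named from other lists or for a leave-one-out result were chosen after their values were seen. Positions and 3′ UTRs came from GENCODE M21, which matched 12676 identifiers, and promoters and microRNAs from RefSeq by symbol. Python 3.11.15 handled text. The alternatives tried were other pseudocounts, filters, scalings and moderation, a replicate block and leaving out each library. The values of 1 called gene of a list are not reported here.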

Additional observations from a re-analysis of the deposited data

How the results depend on the processing

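In the 15 alternatives, all fold changes of the members that could be computed were negative. Of 147 such values, 1, Mmp8 with a pseudocount of 5 (-0.30), moved by more than that gene's own spread between libraries. A member with a wide spread can thus shift far without being counted. Timp3 ran from -1.22 to -0.21 and Timp1 from -0.48 to -0.16. The genes called over the whole table numbered 147, and 74 with no trend and between 55 and 243 when 1 library was left out (55 without WT replicate 3, 58 without WT replicate 2, 63 without KO replicate 1, 243 without WT replicate 1). Members among them numbered 3, and 1 with no trend and between 0 and 4 when 1 library was left out. Timp2 was called in 13 of the 15 alternatives, Mmp8 in 9 and Mmp12 in 7. Mmp9 and Mmp19 were called without WT replicate 1, and Timp3 without KO replicate 3. The members were chosen with this contrast in view, so nothing is read from their calls. Other pathway genes called numbered 4, and 7 with no filter, 1 with no trend and between 1 and 11 when 1 library was left out (11 without KO replicate 3). Of all tested genes, 1.27% were called with the main settings, 1.21% with no filter and 0.640% with no trend. With 1 library left out, the share ranged from 0.476% to 2.10%, and was 1.02% without KO replicate 3. The equally weighted protease minus inhibitor difference, 0.01, ranged from -0.16 to 0.22. With the replicate block, 142 genes were called. Deviations from the group means correlated across genes at between 0.000154 and 0.0834 for same-numbered libraries. For unlike-numbered libraries the correlations lay between -0.0819 and 0.0285. The labels give the replicate numbers no meaning, so whether they pair the libraries is not known. Depth in reads is unknown, and Timp3, Timp1 and Mmp14, under 5 CPM, are the members whose values are least precise.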
